A study of Mus musculus with 23 samples.

Results

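The ileum of male mice that lack the pregnane X receptor (PXR, encoded by Nr1i2) was compared with the ileum of wild-type mice when no receptor ligand had been given. Of the 23 arrays of the series, 12 belonged to this comparison, 6 from Pxr-/- CONT and 6 from WT CONT, with 1 array per mouse. WT mice were C57BL/6J animals bought from a breeder at 6 weeks of age, whereas Pxr-/- mice carried a germline deletion backcrossed to C57Bl/6J and had been bred in house for 10 years, so genotype and breeding origin cannot be told apart. The age of the Pxr-/- mice was not given in the sources used here. After 2 weeks of acclimatization, both CONT groups received corn oil by intraperitoneal injection on 4 days and were killed 6 h after the final dose, at ZT6. The other arrays came from Pxr-/- PCN (6 arrays) and WT PCN (5 arrays) mice, which received 100 mg/kg of pregnenolone 16α-carbonitrile (PCN), a steroid ligand of rodent PXR, in the same oil. The samples were pieces of whole ileum, so fewer cells of a type and less RNA per cell cannot be told apart.

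PXR is a nuclear receptor of the liver and intestine that binds foreign chemicals, bile acids and steroids. Together with the retinoid X receptor it sits on DNA at repeats of a hexamer such as AGGTCA or AGTTCA and raises transcription of phase I enzymes (cytochromes P450 that oxidize lipophilic compounds), phase II enzymes (which conjugate the products) and efflux pumps. In the gut epithelium these proteins form a chemical barrier between the lumen and the blood. PXR has also been described as a brake on innate inflammatory signalling in the intestine, and the epithelium is lined by intraepithelial lymphocytes, mostly CD8+ T cells loaded with granzymes.

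The genes with the widest gap between the genotypes included 7 members of the Cyp3a family, which lie in 1 cluster on chromosome 5. Their promoters are shown because the members fell into separate sequence groups that return below, where the size of the genotype difference with and without PCN is given. The 250 bases before the transcription start are from RefSeq (build GRCm38.p6), read 5′ to 3′ along the gene, and capitals mark AGGTCA or AGTTCA on either strand (TGACCT and TGAACT are their reverse complements).

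Cyp3a25: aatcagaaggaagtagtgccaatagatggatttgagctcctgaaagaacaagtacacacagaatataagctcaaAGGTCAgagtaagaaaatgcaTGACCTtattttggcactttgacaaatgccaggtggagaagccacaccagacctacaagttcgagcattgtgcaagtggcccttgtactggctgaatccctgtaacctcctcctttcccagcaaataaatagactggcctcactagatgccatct
Cyp3a59: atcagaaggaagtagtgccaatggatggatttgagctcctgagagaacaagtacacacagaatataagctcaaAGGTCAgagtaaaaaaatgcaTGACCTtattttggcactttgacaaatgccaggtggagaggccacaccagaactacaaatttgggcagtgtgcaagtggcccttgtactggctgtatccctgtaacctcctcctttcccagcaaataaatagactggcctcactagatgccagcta
Cyp3a57: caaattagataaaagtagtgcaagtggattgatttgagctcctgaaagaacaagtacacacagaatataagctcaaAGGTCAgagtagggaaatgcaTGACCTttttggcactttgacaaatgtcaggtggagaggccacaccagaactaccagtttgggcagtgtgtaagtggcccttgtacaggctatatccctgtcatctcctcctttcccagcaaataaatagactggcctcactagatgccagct
Cyp3a11: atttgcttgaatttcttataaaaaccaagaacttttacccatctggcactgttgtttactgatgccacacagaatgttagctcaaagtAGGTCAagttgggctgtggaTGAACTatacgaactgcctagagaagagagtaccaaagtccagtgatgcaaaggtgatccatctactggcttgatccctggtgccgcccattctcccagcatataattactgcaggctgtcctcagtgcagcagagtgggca
Cyp3a44: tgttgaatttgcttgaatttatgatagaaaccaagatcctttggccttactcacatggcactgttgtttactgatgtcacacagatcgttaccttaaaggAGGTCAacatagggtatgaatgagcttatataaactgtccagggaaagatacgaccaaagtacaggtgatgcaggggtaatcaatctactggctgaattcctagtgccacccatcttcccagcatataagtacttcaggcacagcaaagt
Cyp3a41a: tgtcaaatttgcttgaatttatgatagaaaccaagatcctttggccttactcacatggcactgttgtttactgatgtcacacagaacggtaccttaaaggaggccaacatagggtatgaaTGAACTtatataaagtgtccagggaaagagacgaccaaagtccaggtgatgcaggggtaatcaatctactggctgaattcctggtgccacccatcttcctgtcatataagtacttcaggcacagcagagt

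The windows lie at chr5:146009619-146009868 on the minus strand (Cyp3a25), chr5:146079008-146079257 on the plus strand (Cyp3a59), chr5:145345019-145345268 on the plus strand (Cyp3a57), chr5:145879855-145880104 on the minus strand (Cyp3a11), chr5:145805875-145806124 on the minus strand (Cyp3a44) and chr5:145720137-145720386 on the minus strand (Cyp3a41a). Cyp3a25, Cyp3a57 and Cyp3a59 were 88.9% to 94.8% identical to each other by global alignment, and each held AGGTCA on both strands. Cyp3a16, Cyp3a41a and Cyp3a44 were 91.3% to 94.4% identical to each other and 72.5% to 76.6% identical to Cyp3a11. Between these groups the identity was 53.1% to 56.6%. The Cyp3a16 window, not printed here, held neither hexamer. Among the genes that differed between the genotypes, 31 of 38 had a promoter in the RefSeq table (36 promoters), and 13 of the 36 (36.1%) held AGGTCA or AGTTCA on either strand, beside 24.2% of the 32851 promoters in the table (AGTTCA 11.8%, AGGTCA 14%). All Cyp3a windows printed above are among the 13, and Cyp3a25 counts with 2 nearly identical windows. Many of these windows are near copies of each other, so the 13 are not independent promoters. None of the 36 windows held the hexamers as a direct repeat (DR3 or DR4) or an everted repeat (ER6), where the digit counts the bases between them. Of all promoters in the table, 0.0122% held DR3, 0.0244% DR4 and 0.00913% ER6. A match of these letters is a description of the window, not a binding site.

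The quality values of the arrays overlapped between the genotypes, with a wider range of brightness in Pxr-/- CONT. The median spot brightness was 90 to 99.5 in WT CONT and 74 to 102.5 in Pxr-/- CONT on the linear scale, no spot of the 12 arrays was saturated, and probes well above background made up 65.1% ± 1.25 (SD, n = 6) in WT CONT and 66.4% ± 1.84 (SD, n = 6) in Pxr-/- CONT (2-sided exact permutation test, p = 0.167). Across probes, the correlation of an array with another was 0.992 to 0.995 within WT CONT, 0.989 to 0.995 within Pxr-/- CONT and 0.989 to 0.994 between the genotypes. The ileal genes Fabp6 (an intracellular bile acid binding protein) and Slc10a2 (the bile acid uptake transporter) were above background on all 12 arrays, with Fabp6 at 18.4 or more on the log2 scale. The probe for Nr1i2, on mm9 chr16:38248745-38248804, read 11.82, 12.20 and 12.36 (lowest, median and highest log2 signal) in WT CONT and 11.42, 11.66 and 12.27 in Pxr-/- CONT. The groups overlapped, with a change of -0.41 ± 0.15 (log2, SE, limma, adjusted p = 0.337). Which part of the gene the allele removes is not given in the sources used here, so its signal is no check of the genotype.

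Basal expression differed between the genotypes in a small set of genes, most of them lower without PXR. Of 17727 genes tested, 38 (0.214%) were called different, that is, with an adjusted p of at most 0.05 (limma, Benjamini-Hochberg) and a fold change above 1.5. There were 29 genes lower in Pxr-/- CONT (0.164% of those tested) and 9 higher (0.0508%). Values are log2 signals after quantile normalization, and every change is Pxr-/- minus WT. The 6 Pxr-/- CONT arrays lay wholly apart from the 6 WT CONT arrays for 33 of the 38 genes, against 242 of all genes (1.37%). All 38 genes changed in the same direction in both wash batches, which held 3 arrays of each group, with a median size of 1.11 in batch 1 and 1.39 in batch 2. The genes were called on these same arrays, so separation and shared direction largely follow from the call and are not separate support for it.

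The count depended on the arrays that set the spread. With the 12 CONT arrays alone in the fit, 103 genes were called (0.581%), 47 higher (0.265%) and 56 lower (0.316%), and 37 of the 38 were among them. With 1 array left out of the 23, the count was 24 without WT CONT replicate 6, 24 without Pxr-/- CONT replicate 1, 62 without Pxr-/- CONT replicate 4 and within these bounds for the others.

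Cytochromes P450 of the Cyp3a family, which oxidize drugs, steroids and bile acids, were among the genes with large differences. Of 8 tested family members, 7 were called lower in Pxr-/- CONT. Cyp3a41a read 8.86, 10.44 and 11.67 in WT CONT and 6.02, 6.47 and 7.08 in Pxr-/- CONT, a change of -3.86 ± 0.39 (adjusted p = 1.06e-05), or 14.5-fold lower. The lowest WT array was thus above the highest Pxr-/- array by a wide margin, although WT mice themselves spread over 2.81 log2 units. Cyp3a25 read 10.03, 11.58 and 12.14 in WT CONT and 7.76, 8.40 and 9.48 in Pxr-/- CONT (-2.95 ± 0.37, adjusted p = 0.000229). Its close relatives Cyp3a59 (8.71, 10.24 and 11.02 against 6.73, 7.35 and 8.17) and Cyp3a57 (8.90, 10.47 and 11.02 against 6.83, 7.40 and 8.63) were lower by nearly the same amount, at -2.81 ± 0.34 (adjusted p = 0.000132) and -2.76 ± 0.36 (adjusted p = 0.000362). For all 3 the groups did not overlap.

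Cyp3a44 and Cyp3a16 were at or near background without the receptor. Cyp3a44 read 5.96, 8.06 and 8.78 in WT CONT and 5.05, 5.41 and 5.70 in Pxr-/- CONT, where 3 of 6 arrays were above background (-2.45 ± 0.39, adjusted p = 0.00338). Cyp3a16 read 5.88, 7.58 and 8.82 in WT CONT and 4.91, 5.13 and 5.30 in Pxr-/- CONT (fitted change -2.42 ± 0.33, adjusted p = 0.000594). It was not well above background on any Pxr-/- CONT array. With a floor on these arrays its group mean was 5.17-fold lower. The floor replaced values under the lowest signal well above background on the same array by that signal. Probes brighter than this floor can also fail to be well above background, so the fold is not a lower bound. Over the alternative fits the change was -4.74 to -1.76. Cyp3a11, the family member most often used as a readout of PXR, read 6.94, 8.44 and 9.47 in WT CONT and 6.38, 6.57 and 6.75 in Pxr-/- CONT, where all 6 arrays were above background (-1.81 ± 0.31, adjusted p = 0.00698). The Pxr-/- mice were tightly grouped at the lower end and the WT mice were not, with 1 WT array (replicate 1, 6.94) just above them. Cyp3a13 was the exception in the family, with overlapping groups and a change of -0.08 ± 0.12 (adjusted p = 0.929). Probes of the 7 called members were 34.9% to 72.1% identical to each other by global alignment. Probes were compared with each other and not with the other transcripts, so binding of a probe to another member was not tested. Near-identical gene copies may share a probe, so the name of a single member is less certain than that of the family.

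**Figure D1:**
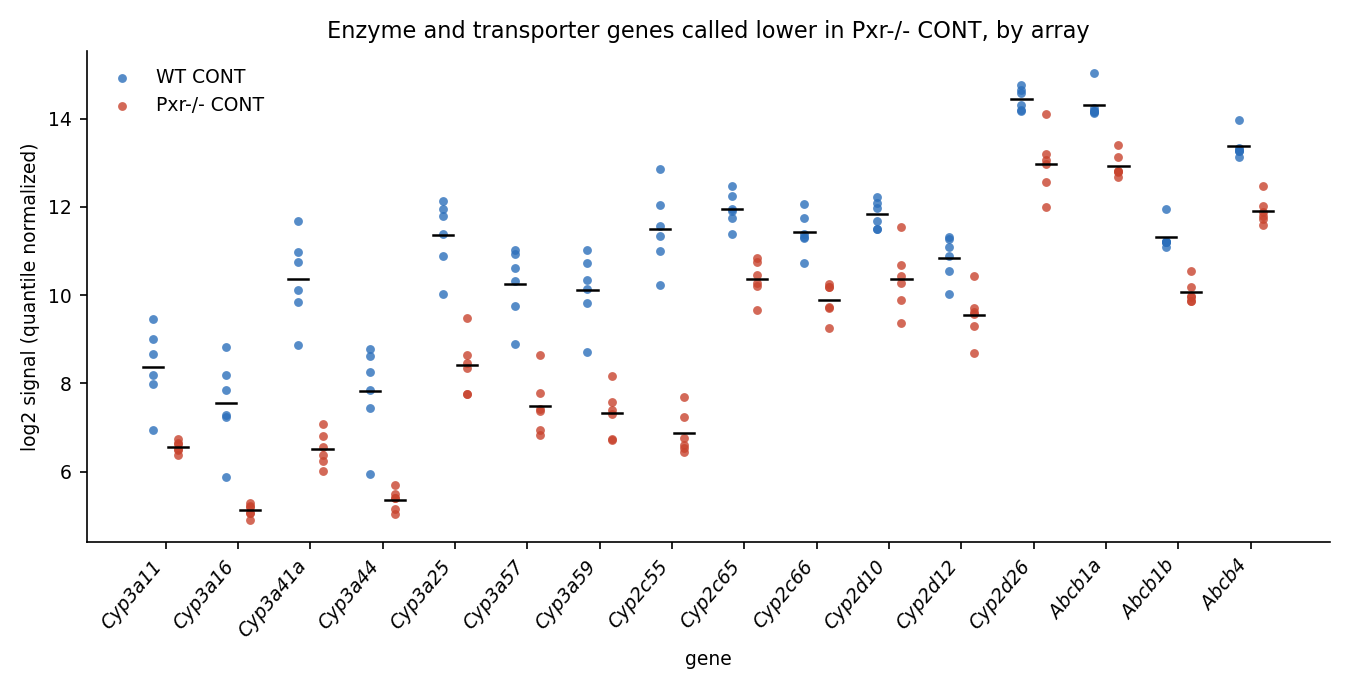
Log2 signal (quantile normalized, vertical axis) of 16 enzyme and transporter genes called lower in Pxr-/- CONT, with 1 point per array, blue for WT CONT and red for Pxr-/- CONT (6 arrays each) and a black line at the group mean. The groups do not overlap for the Cyp3a, Cyp2c and Abcb genes, and 1 Pxr-/- CONT array reaches into or near the WT range for each Cyp2d gene; levels of different genes are not comparable.

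In the Cyp2c family, which oxidizes drugs and fatty acids such as arachidonic acid, 3 of 11 tested genes were called lower. Cyp2c55 had the largest change of all genes tested. It read 10.23, 11.46 and 12.85 in WT CONT and 6.46, 6.68 and 7.69 in Pxr-/- CONT, a change of -4.63 ± 0.45 (adjusted p = 8.6e-06), or 24.7-fold lower, and its other probe gave -4.27. Within the wash batches the difference was -4.23 and -5.03. Cyp2c65 (11.38, 11.93 and 12.47 against 9.67, 10.37 and 10.84) and Cyp2c66 (10.73, 11.35 and 12.07 against 9.25, 9.96 and 10.26) were lower by 3-fold and 2.9-fold, with changes of -1.59 ± 0.25 (adjusted p = 0.00315) and -1.54 ± 0.26 (adjusted p = 0.00641). All WT arrays were above all Pxr-/- arrays for these genes. Cyp2c40 (-0.98, adjusted p = 0.0524), Cyp2c29 (-0.89, adjusted p = 0.084), Cyp2c68 (-0.81, adjusted p = 0.0653) and Cyp2c69 (-0.77, adjusted p = 0.0805) did not pass, and were called in the fit to the 12 CONT arrays.

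In the Cyp2d family, known for the oxidation of many drugs, 3 of 10 tested genes were called lower, but with less separation. Cyp2d26 read 14.18, 14.45 and 14.77 in WT CONT and 11.99, 13.01 and 14.10 in Pxr-/- CONT (-1.47 ± 0.29, adjusted p = 0.0332). WT mice were within 0.59 log2 units of each other while Pxr-/- mice spread over 2.11, and Pxr-/- CONT replicate 3 was almost at the WT level. Cyp2d10 (11.50, 11.83 and 12.23 against 9.36, 10.36 and 11.55) and Cyp2d12 (10.02, 10.98 and 11.31 against 8.69, 9.60 and 10.44) overlapped between the groups, with changes of -1.46 ± 0.31 (adjusted p = 0.0493) and -1.30 ± 0.26 (adjusted p = 0.0324). Each of these 3 calls was lost in at least 8 of the 12 fits that left out 1 array.

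Both tested Cyp2b genes, which are shared targets of PXR and the related receptor CAR, fell short of the threshold. Cyp2b10 read 6.00, 6.85 and 7.86 in WT CONT and 4.92, 5.48 and 5.81 in Pxr-/- CONT (-1.46 ± 0.34, adjusted p = 0.0827), with no overlap between the groups, and it was called in the fit to the 12 arrays. Cyp2b9 read 5.42, 5.79 and 6.66 in WT CONT and 4.90, 5.13 and 5.18 in Pxr-/- CONT, where no array was above background. With the same floor as for Cyp3a16 its group mean was 1.66-fold lower, a value that carries no error and is not a lower bound. Over the alternative fits the change was -2.50 to -0.48. The fitted change did not pass (-0.82 ± 0.28, adjusted p = 0.307).

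Across a list of 62 phase I enzymes, 55 were tested, 11 were called lower and none higher by limma. At an unadjusted p under 0.05, 28 were lower and 1 higher (5.71% and 4.61% of all genes). The median change was -0.24, beside -0.0032 over all genes, and the mean level of the list was 10.20 to 10.98 in WT CONT and 9.72 to 10.02 in Pxr-/- CONT. All 11 called genes were P450s. The carboxylesterase Ces2a had overlapping groups (11.23, 12.19 and 12.62 against 11.21, 11.45 and 11.89) and a change of -0.65 ± 0.19 (adjusted p = 0.187).

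No conjugating enzyme was called. Of 38 tested phase II genes, limma called none in either direction, 5 had an unadjusted p under 0.05 (all lower) and the median change was -0.08. The glutathione transferases Gstm1 (-0.13 ± 0.14, adjusted p = 0.877), Gstm3 (-0.30 ± 0.22, adjusted p = 0.771) and Gsta4 (-0.56 ± 0.21, adjusted p = 0.389) had overlapping groups. Among 21 tested xenobiotic receptors and their partners none was called (1 higher and 3 lower at an unadjusted p under 0.05). Rxra, the DNA-binding partner of PXR, gave a change of -0.14 ± 0.09 (adjusted p = 0.722).

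Transporter genes of the Abcb family were called lower together. Abcb1a and Abcb1b encode P-glycoprotein, which pumps drugs back into the lumen, and Abcb4 moves phosphatidylcholine across the membrane. The 3 genes neighbour each other on chromosome 5 and were the called genes among 9 tested Abcb genes. Abcb1a read 14.12, 14.17 and 15.03 in WT CONT and 12.67, 12.81 and 13.41 in Pxr-/- CONT (-1.38 ± 0.17, adjusted p = 0.000121, 2.6-fold lower). Abcb1b read 11.10, 11.21 and 11.95 against 9.86, 9.98 and 10.54 (-1.25 ± 0.16, adjusted p = 0.000362, 2.37-fold lower). Abcb4 read 13.14, 13.28 and 13.98 against 11.59, 11.84 and 12.48 (-1.46 ± 0.17, adjusted p = 0.000121, 2.75-fold lower). None of the 3 overlapped between the groups, and WT CONT replicate 2 was the highest array for each. A dimmer probe of Abcb1a gave -0.50 (adjusted p = 0.188), so its probes disagree in size. In the list of 18 tested drug transporters, Abcb1a and Abcb1b were the called genes, and Abcc2 (-0.62, adjusted p = 0.343) and Abcc3 (0.37, adjusted p = 0.42), both export pumps for conjugates, did not pass.

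Several lower genes had no known place in drug metabolism. Ankrd35, an ankyrin repeat gene, had the smallest p of all. It read 9.16, 9.30 and 9.56 in WT CONT and 7.48, 7.90 and 8.14 in Pxr-/- CONT, a change of -1.46 ± 0.10 (adjusted p = 1.77e-08), and its other probe was also called (-0.79). Fyb2, an adaptor protein gene related to the T cell adaptor Fyb1, read 10.09, 10.75 and 11.18 against 8.94, 9.41 and 10.04 (-1.22 ± 0.17, adjusted p = 0.000594). Both were without overlap.

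Wnt4, a secreted Wnt ligand, read 9.52, 9.77 and 10.02 in WT CONT and 8.80, 9.05 and 9.30 in Pxr-/- CONT (-0.71 ± 0.11, adjusted p = 0.00248). Igfbp3, a carrier of insulin-like growth factors, read 12.18, 12.33 and 12.43 against 11.51, 11.68 and 11.79 (-0.66 ± 0.08, adjusted p = 0.000229). These differences were small but larger than the spread of the arrays, since every Pxr-/- array was below every WT array. Smcp (-1.004, above background on 1 of 6 Pxr-/- arrays), Hs3st6 (-0.75), Cndp1 (-0.63), Fgfbp3 (-0.63) and Pdxk (-0.59) were also lower. Each of these last 5 calls was lost in at least 1 of the 12 fits that left out 1 array. Fgfbp3, fitted without 1 Pxr-/- PCN array that had no value, was the called gene among 7 tested genes of a list known to differ between C57BL/6 substrains. At an unadjusted p under 0.05 in limma, 2 of the 7 were lower, Fgfbp3 among them, and none was higher (5.71% and 4.61% of all genes). Nnt, the best known of the list, was not called (0.13 ± 0.17, adjusted p = 0.912). A called probe without a gene symbol, for the immunoglobulin kappa variable segment 17-121, was lower by a change of -1.97 (adjusted p = 0.0413).

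Genes known from cytotoxic and other T cells were among the 9 genes higher in Pxr-/- CONT. Gzmk, a granzyme of killer lymphocytes, read 6.39, 6.70 and 7.10 in WT CONT and 7.56, 8.03 and 8.53 in Pxr-/- CONT (1.27 ± 0.25, adjusted p = 0.0254, 2.41-fold higher). Ccl5, a chemokine that activated T cells store and release, read 13.39, 13.74 and 13.99 against 14.45, 14.89 and 15.13 (1.14 ± 0.23, adjusted p = 0.033, 2.2-fold higher). No Pxr-/- array fell within the WT range for either gene. Cd7, a surface protein of T and NK cells, read 9.88, 10.17 and 10.31 against 10.43, 11.06 and 11.16 (0.82 ± 0.15, adjusted p = 0.0152). Lck, the kinase that starts T cell receptor signalling, read 10.30, 10.63 and 10.71 against 10.94, 11.20 and 11.51 (0.66 ± 0.13, adjusted p = 0.0279). The T cell membrane protein Ms4a4b (0.75 ± 0.14, adjusted p = 0.0235) was also called, as were the probes for the constant segments 1 and 2 of the T cell receptor beta chain, which carry no gene symbol here (0.72, adjusted p = 0.0373, and 0.79, adjusted p = 0.0418). Other probes of Gzmk (0.75), Cd7 (0.61), Lck (0.46) and Ms4a4b (0.52) gave smaller changes and were not called.

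Nearly all genes on the list of cytotoxic and intraepithelial lymphocytes had a positive change, although few were called. Of 31 tested genes, 30 had a positive change, 23 were higher and none lower at an unadjusted p under 0.05 (4.61% of all genes were higher at that p), and 16 had groups without overlap (1.37% of all genes). Of all 17727 genes, 8661 had a positive change, the share to set beside the positive counts of this and the later lists. The median change was 0.49, and the mean level of the list was 8.43 to 8.83 in WT CONT and 9.03 to 9.36 in Pxr-/- CONT, without overlap. Limma called 4 of them (Gzmk, Ccl5, Cd7 and Lck). The fit to the 12 arrays called 14, adding Gzma, Gzmb, Ifng, Cd3d, Cd3g, Cd6, Cd8a, Cd8b1, Itgae and Nkg7. Left-out arrays weighed on the call: 0 genes of the list were called without WT CONT replicate 6, Pxr-/- CONT replicate 1 or Pxr-/- CONT replicate 2, 1 without WT CONT replicate 5, Pxr-/- CONT replicate 3 or Pxr-/- CONT replicate 6, and 2 without WT CONT replicate 1 or replicate 3.

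Some members below the threshold also had groups without overlap. Gzmb, the main killer protease, read 9.46, 10.095 and 10.34 in WT CONT and 10.83, 11.10 and 11.52 in Pxr-/- CONT (1.19 ± 0.32, adjusted p = 0.147). Cd8a, the coreceptor of killer T cells, read 7.84, 8.12 and 8.61 against 8.70, 8.998 and 9.14 (0.80 ± 0.19, adjusted p = 0.0954). Cd160, a receptor of intraepithelial lymphocytes, read 5.59, 5.80 and 5.94 against 6.02, 6.30 and 6.42 (0.49 ± 0.10), with an adjusted p of 0.037 but a change below the fold threshold. For these 3 genes every Pxr-/- array was above every WT array, whereas Cd3e (10.34, 10.60 and 10.96 against 10.73, 11.09 and 11.44) overlapped.

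The lists of other immune cells held no called gene. B cell and Peyer patch genes had a median change of 0.02 (11 of 21 higher, none called or at an unadjusted p under 0.05) and a mean level of 8.18 to 8.38 in WT CONT and 8.19 to 8.51 in Pxr-/- CONT. With this level as a covariate, 4 cytotoxic lymphocyte genes were called, as without it. Since the level was alike in both CONT groups, this fit could change the comparison little. The part of B cell tissue in the lymphocyte genes was not tested by it. Macrophage genes had a median of -0.07 (4 of 19 higher, none called, 1 lower at an unadjusted p under 0.05). Genes of neutrophils and alarmins (median 0.09, 3 of 17 higher at that p), mast cells (0.06, 3 of 10 higher) and the type 2 response (-0.07, 2 of 12 lower) had none called either, and the fit to the 12 arrays called 1 of them, the neutrophil granule gene Ltf. In TLR4 and NF-kB signalling, the innate pathway on which PXR has been described to act, 18 of 29 genes had a positive change, 2 were higher and 2 lower at an unadjusted p under 0.05, and none was called. Tlr4 itself read 8.27, 8.42 and 8.58 against 8.44, 8.64 and 8.88 (0.22 ± 0.10, adjusted p = 0.5).

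**Figure D2:**
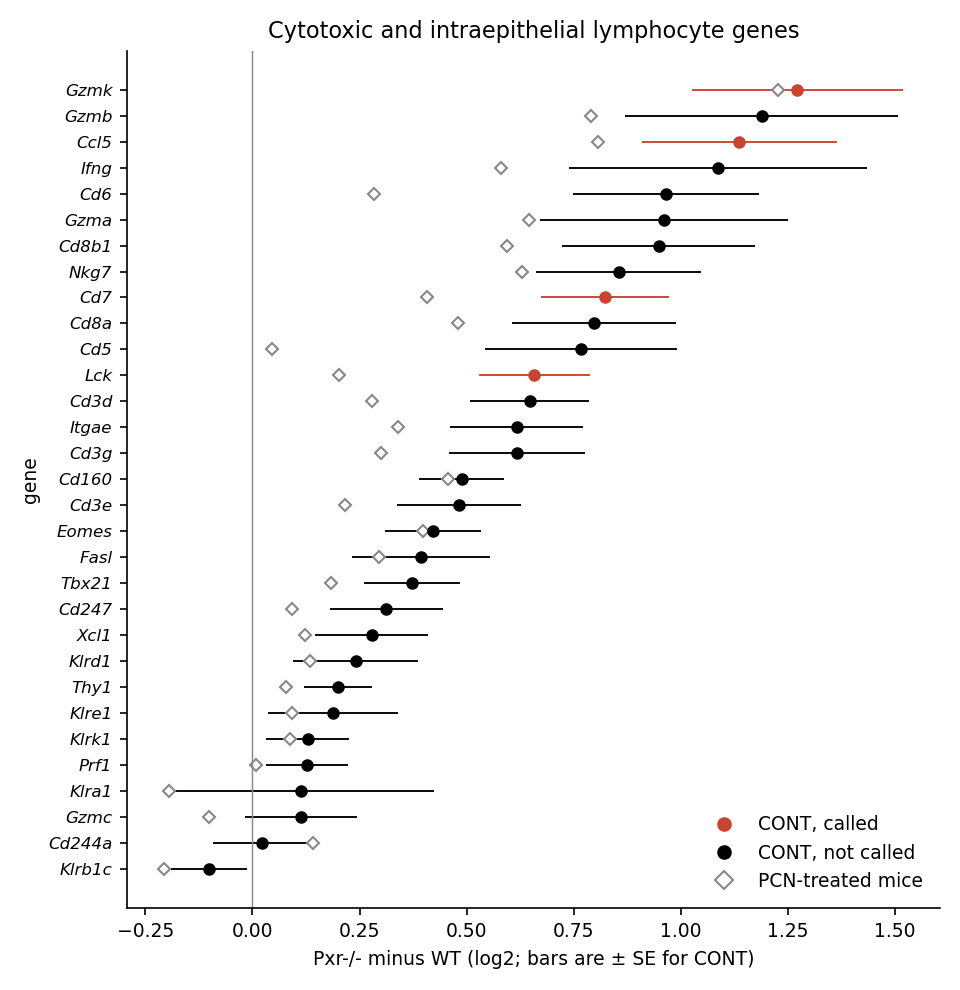
Difference Pxr-/- minus WT (log2, horizontal axis) of the 31 tested cytotoxic and intraepithelial lymphocyte genes in the oil-treated mice (points with ± SE, red where called) and in the PCN-treated mice (open diamonds). In the oil-treated mice 30 of the 31 genes lie right of 0, and 4 are called.

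Most interferon-responsive and antigen presentation genes had positive changes with a wide spread between mice. Il18bp, the secreted inhibitor of interleukin 18 and itself an interferon target, was called. It read 8.67, 9.10 and 9.54 in WT CONT and 9.69, 10.60 and 11.10 in Pxr-/- CONT (1.40 ± 0.26, adjusted p = 0.021, 2.64-fold higher), with a second called probe (1.41). In a list of 50 tested interferon-stimulated genes, 43 had a positive change, 18 were higher and 1 lower at an unadjusted p under 0.05, the median was 0.37, and none was called by limma, while the fit to the 12 arrays called 6 (Igtp, Psmb8, Psmb9, Tap1, Ubd and Zbp1). Ubd, a ubiquitin-like modifier, read 10.07, 10.88 and 11.93 against 12.08, 12.97 and 13.80 (1.97 ± 0.61, adjusted p = 0.233). Zbp1, a nucleic acid sensor, read 9.61, 9.86 and 10.62 against 10.80, 11.46 and 11.80 (1.45 ± 0.40, adjusted p = 0.159). Neither overlapped between the groups. The mean level of the list did overlap, at 10.39 to 10.94 in WT CONT and 10.65 to 11.43 in Pxr-/- CONT.

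For MHC class I, which shows peptides to CD8+ T cells, 18 of 20 genes had a positive change, 16 were higher at an unadjusted p under 0.05, the median was 0.34 and none was called by limma in the fit to all arrays, while the fit to the 12 arrays called 2 (Nlrc5 and Tap1). Its mean level was 12.52 to 12.87 in WT CONT and 12.92 to 13.35 in Pxr-/- CONT, without overlap. Nlrc5, the transactivator of the class I genes, read 8.87, 9.42 and 9.83 against 10.096, 10.51 and 10.90 (1.14 ± 0.27, adjusted p = 0.0959). B2m (0.33, adjusted p = 0.31) and H2-K1 (0.33, adjusted p = 0.332) overlapped between the groups. MHC class II genes had a median of 0.22 (7 of 10 higher, 3 at an unadjusted p under 0.05, none called).

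No gene of cell division was called. Of 47 tested mitosis and DNA replication genes, 39 had a positive change, but the median was 0.17, 9 were higher and none lower at an unadjusted p under 0.05, none was called by limma and none had groups without overlap. The mean level of the list was 10.11 to 10.48 in WT CONT and 10.03 to 10.78 in Pxr-/- CONT. The proliferation marker Mki67 read 12.49, 12.62 and 12.91 against 12.47, 12.83 and 13.13 (0.17 ± 0.11, adjusted p = 0.715). Top2a, which untangles DNA in dividing cells, gave 0.17 ± 0.16 (adjusted p = 0.853), and the mitotic kinase Cdk1 gave 0.18 ± 0.24 (adjusted p = 0.91) and was negative within wash batch 2. For Cdk1, WT mice lay within 0.28 log2 units and Pxr-/- mice spread over 1.66. Stem cell genes had a median of -0.11 (4 of 18 positive, 2 lower at an unadjusted p under 0.05, none called), with Lgr5 at -0.40 (adjusted p = 0.553), Olfm4 at -0.22 (adjusted p = 0.795) and the stem cell transcription factor Ascl2 at -0.73 (adjusted p = 0.189).

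Of the 35 gene lists, 31 had no gene called by limma, among them all lists of other cell types. Median changes were -0.26 for Paneth cells (13 tested, 3 lower at an unadjusted p under 0.05), -0.08 for goblet cells (14 tested, none at that p), -0.11 for absorptive enterocytes (26 tested, 1 higher and 5 lower), -0.11 for enteroendocrine cells (18 tested, 1 higher and 3 lower) and -0.0019 for tuft cells (12 tested, none at that p). The stromal lists were close to 0, at 0.06 for smooth muscle (15 tested, 1 higher), -0.0016 for fibroblasts and matrix (18 tested, 1 higher and 3 lower) and -0.07 for mesothelium (9 tested, 1 lower). Paneth cell levels were 14.42 to 15.01 in WT CONT and 13.82 to 15.12 in Pxr-/- CONT, so the lowest mice were Pxr-/- but the groups overlapped. The adipose list varied between mice, with a mean level of 7.90 to 10.75 in WT CONT and 8.84 to 9.79 in Pxr-/- CONT (median change -0.18, 10 tested, 1 lower). Of the lists for other segments and organs, pancreatic acinar genes gave -0.09 (6 tested, 1 lower), proximal small intestine genes -0.05 (10 tested, 2 higher and 1 lower) and colon genes 0.11 (8 tested, 1 higher and 1 lower).

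The metabolic lists held no called gene. Median changes were 0.05 for bile acid transport and FXR targets (8 of 9 positive, 1 at an unadjusted p under 0.05), 0.09 for cholesterol synthesis (26 tested, 7 higher and 3 lower at that p), 0.03 for lipogenesis (17 tested, 2 higher and 1 lower), -0.12 for fatty acid oxidation (25 tested, 1 higher and 2 lower) and -0.04 for the circadian clock (18 tested, none at that p). Fgf15, the hormone that ileal bile acids induce, spanned 7.65 to 11.17 in WT CONT against 9.26 to 11.57 without the receptor (1.19 ± 0.65, adjusted p = 0.642). Epithelial genes known to respond to gut microbes had a median of 0.38 (15 of 19 positive, 4 higher and 1 lower at an unadjusted p under 0.05, none called). Saa1, an acute-phase protein of that list, read 13.68, 15.42 and 16.31 against 15.64, 16.37 and 17.02 (1.06 ± 0.45, adjusted p = 0.474), and Retnlb, an antibacterial goblet cell protein, spread over 5.73 log2 units within Pxr-/- CONT (1.39 ± 0.77, adjusted p = 0.652). Esrrg, an orphan nuclear receptor of oxidative metabolism and on none of the lists, was called higher, at 5.93, 6.00 and 6.36 in WT CONT and 6.70, 7.14 and 7.76 in Pxr-/- CONT (1.11 ± 0.19, adjusted p = 0.00676).

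The same genotypes were measured again in the PCN-treated mice, which share no array with the oil-treated mice although all 23 arrays share 1 estimate of the spread. There, 96 of 17727 genes (0.542%) were called, 83 lower (0.468%) and 13 higher (0.0733%). Of the 38 genes called without ligand, 37 had the same sign in the PCN-treated mice, against 56% of all genes, and 20 were called there too, 18 of them lower and 2 higher (Gzmk and Tctex1d2). Smcp was the gene that turned sign (0.02).

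**Figure D3:**
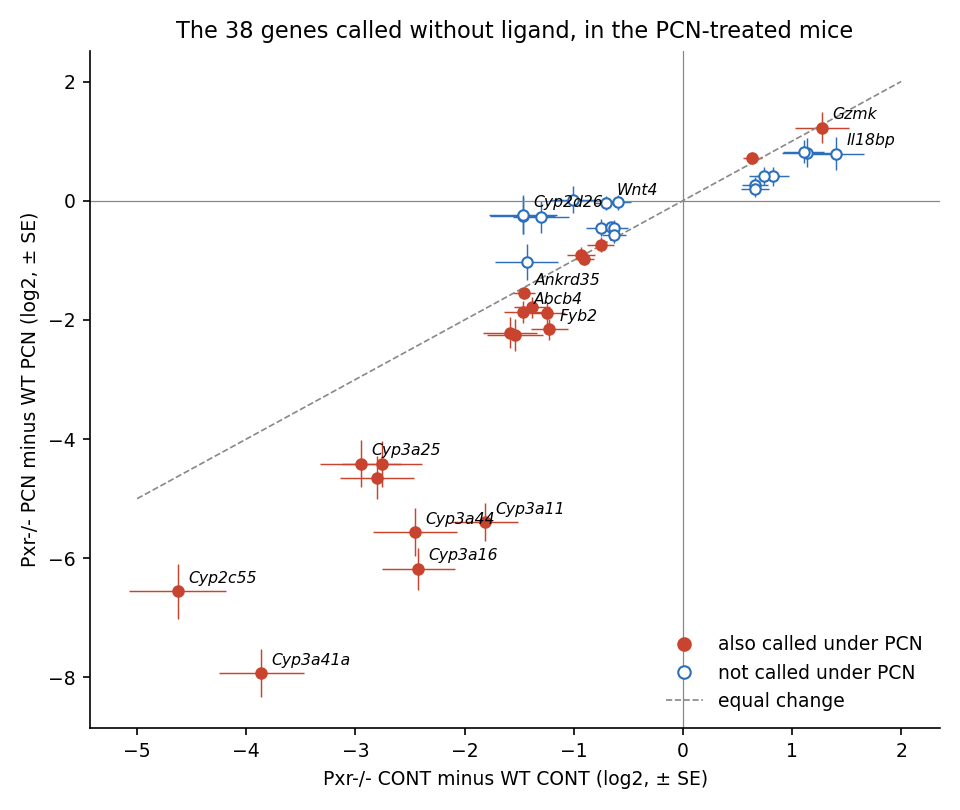
Difference Pxr-/- minus WT (log2, ± SE) of the 38 genes called in the oil-treated mice (horizontal axis) against the same difference in the PCN-treated mice (vertical axis), filled red where also called under PCN and open blue where not, with a dashed line of equal change. The Cyp3a genes and Cyp2c55 lie far below the line, Ankrd35 and Gzmk close to it, and the Cyp2d genes and Wnt4 near 0 on the vertical axis.

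How far PCN widened the gap differed between genes. The difference between the genotype effects (the interaction) was called for 21 genes (0.118%), and for 4 of the 38, all of them in the Cyp3a11 group of promoters shown above. In the PCN-treated mice Cyp3a41a changed by -7.92 (interaction -4.06, adjusted p = 0.00182), Cyp3a16 by -6.17 (interaction -3.75, adjusted p = 0.000875), Cyp3a44 by -5.56 (interaction -3.11, adjusted p = 0.0249) and Cyp3a11 by -5.40 (interaction -3.58, adjusted p = 0.000875). The change under PCN was -4.41 for Cyp3a25, -4.65 for Cyp3a59 and -4.42 for Cyp3a57. Their interactions did not pass, with -1.46 for Cyp3a25 (adjusted p = 0.999), -1.84 for Cyp3a59 (adjusted p = 0.392) and -1.66 for Cyp3a57 (adjusted p = 0.72). The difference between these Cyp3a groups was not itself tested. Cyp2c55 changed by -6.56 under PCN (interaction -1.93, adjusted p = 0.787). Of genes not called without ligand, the interaction was called for Cyp2b10 (-3.89, adjusted p = 0.000875), Cyp2b9 (-3.80, adjusted p = 0.000146), Gstm3 (-2.17, adjusted p = 0.00299) and Ces2a (-1.95, adjusted p = 0.00182).

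For the other called genes the interaction did not pass. The transporters changed by -1.79 (Abcb1a), -1.89 (Abcb1b) and -1.87 (Abcb4) under PCN, Ankrd35 by -1.55 and Fyb2 by -2.16, and all 5 were called in both. The Cyp2d genes and Wnt4 were called in the oil-treated mice and not in the PCN-treated mice. Under PCN Cyp2d26 changed by -0.25, Cyp2d10 by -0.24, Cyp2d12 by -0.27 and Wnt4 by -0.04, but none of their interactions passed (Cyp2d26 1.22, adjusted p = 0.89, and Wnt4 0.67, adjusted p = 0.194). Of the cytotoxic lymphocyte genes, 28 of 31 had a positive change under PCN, where 9721 of all 17727 genes did, with a median of 0.28 and 1 called (Gzmk). Interferon-stimulated genes had a median of 0.59 (49 of 50 positive) and MHC class I genes a median of 0.12 under PCN.

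The neighbourhood of the deleted gene held 5 of the 38 called genes. In a backcrossed knockout, DNA around the targeted gene usually comes from the strain in which it was targeted, so this region was counted apart. Of 149 tested genes whose probe lay within 10 Mb of the Nr1i2 probe on chromosome 16 (mm9), 5 (3.36%) were called, 1 higher and 4 lower, with 2 of 69 (2.9%) within 5 Mb, 5 of 273 (1.83%) within 20 Mb, none of 295 on the rest of the chromosome and 33 of 17159 (0.192%) elsewhere. In the PCN-treated mice 7 of the 149 were called, beside 0.542% of all genes, and 4 of them were the same genes. The 5 were Pigx, a subunit of the first mannosyltransferase of GPI anchor synthesis (-0.93 ± 0.13, adjusted p = 0.000884), Cep19, a centrosomal protein needed for cilia (-0.75 ± 0.12, adjusted p = 0.00491), Tctex1d2, a dynein light chain (0.64 ± 0.09, adjusted p = 0.000898), Cstdc5, a cysteine protease inhibitor of the stefin A cluster (-1.43 ± 0.29, adjusted p = 0.036), and Arhgap31, which switches off the GTPases Rac1 and Cdc42 (-0.90 ± 0.09, adjusted p = 8.6e-06). Whether these differences come from the absence of PXR or from flanking DNA cannot be told apart.

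**Figure D4:**
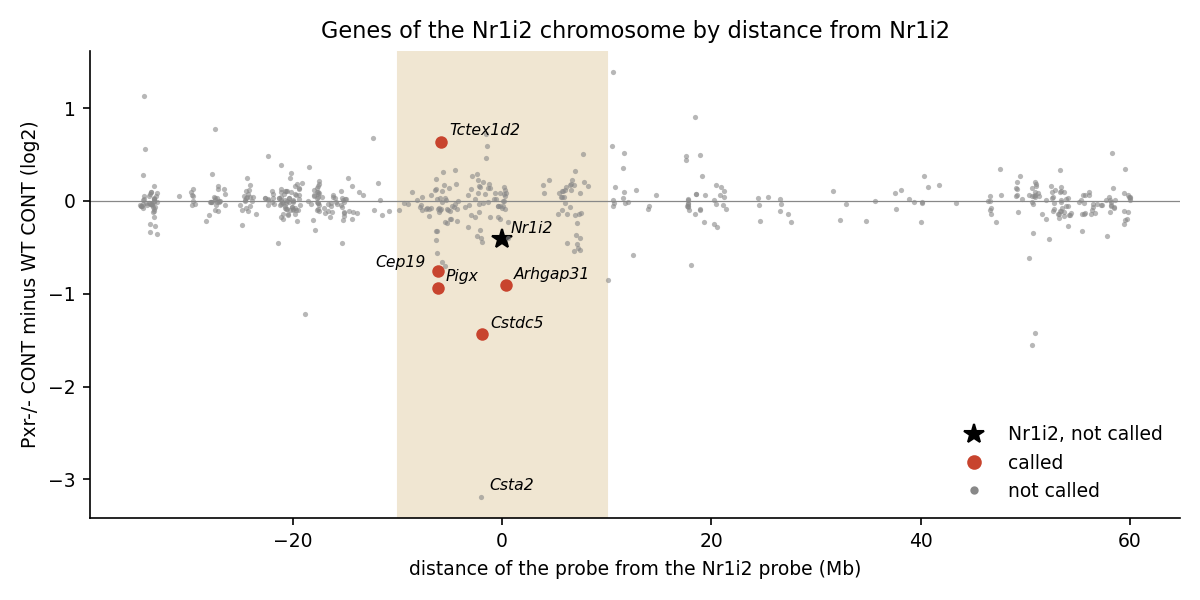
Difference Pxr-/- CONT minus WT CONT (log2, vertical axis) of each tested gene on the chromosome of Nr1i2, by distance of its probe from the Nr1i2 probe (Mb, horizontal axis), red where called, grey where not, with a star for Nr1i2 and shading for the 10 Mb on either side. The 5 called genes lie within 6.16 Mb of Nr1i2.

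The Pxr-/- mice were not alike at several of these loci. Pigx and Cep19, 6.16 and 6.14 Mb from Nr1i2, start head to head, and their RefSeq promoter windows share 61 bases. Pigx read 10.05, 10.73, 10.11, 10.80, 10.17 and 10.05 in Pxr-/- CONT replicates 1 to 6, against 11.17 to 11.32 in WT CONT. Cep19 read 10.61, 11.14, 10.74, 11.52, 10.90 and 10.71, against 11.52 to 11.87. Replicates 2 and 4 were thus nearest to WT for both genes.

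Tctex1d2, 5.82 Mb away, was higher in Pxr-/- CONT, with 10.28, 9.90, 10.20, 9.70, 10.12 and 10.16 against 9.33 to 9.55 in WT CONT, and here too replicates 2 and 4 were nearest to WT. The widest split was in Csta2, another stefin A gene, 1.99 Mb away, which read 5.22, 8.83, 4.66, 8.30, 5.03 and 4.75 in Pxr-/- CONT and was above background in replicates 2 and 4 alone. In WT CONT it read 8.25, 9.51, 9.66, 9.78, 9.20 and 9.50, so 4 Pxr-/- mice were below WT by more than 3 log2 units and 2 were within its range. The change over all mice was -3.19 ± 0.73 and did not pass (adjusted p = 0.0745). Cstdc5, its neighbour, read 4.98, 6.398, 4.45, 6.18, 4.92 and 4.64 against 6.06 to 6.94. It was above background on 2 of 6 Pxr-/- CONT arrays, the groups overlapped, and it was not called in 9 of the 12 fits that left out 1 array. The SUMO protease gene Senp5 read 7.58, 8.01, 7.52, 8.14, 7.56 and 7.55 against 8.12 to 8.47 (-0.56 ± 0.12, adjusted p = 0.0526), again with replicates 2 and 4 nearest to WT.

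In Pxr-/- PCN, Csta2 read 5.05, 8.68, 4.96, 4.90, 8.41 and 5.09, against 9.35 to 9.86 in WT PCN, so there replicates 2 and 5 stood apart from the other 4 mice. Pxr-/- CONT replicates 2 and 4 were washed in batch 1 together with replicate 5, and replicates 1, 3 and 6 in batch 2, while Pxr-/- PCN replicate 2 was washed in batch 1 and replicate 5 in batch 2. The part of the wash batch in the split was not tested. Pigx read 10.28, 10.81, 10.34, 10.43, 10.84 and 10.101 in the same mice, with the same 2 nearest to WT. Arhgap31, the called gene closest to Nr1i2 at 0.35 Mb, had no such split, with 8.63 to 8.89 in all 6 Pxr-/- CONT mice and 9.31 to 9.84 in WT CONT. Its other probes gave -0.69 (called) and -0.37 (not called). A probe without a symbol (A130072N09Rik), 7.74 Mb from Nr1i2, was also called (-1.17, adjusted p = 0.000362), and Tmprss7, 7.41 Mb away, was lower by less than the fold threshold (-0.52 ± 0.11, adjusted p = 0.0373). At neither of them were replicates 2 and 4 the 2 nearest to WT. Further probes were called for genes whose brightest probe was not called, so that these genes are not among the 5. They were Gm17783 (-0.74, adjusted p = 0.0237) and Cd96 (0.69, adjusted p = 0.00491), with brightest probes 7.26 and 7.79 Mb away, and, beyond 10 Mb, Dubr (-0.81, adjusted p = 3.02e-05), with its brightest probe 12.48 Mb away.

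**Figure D5:**
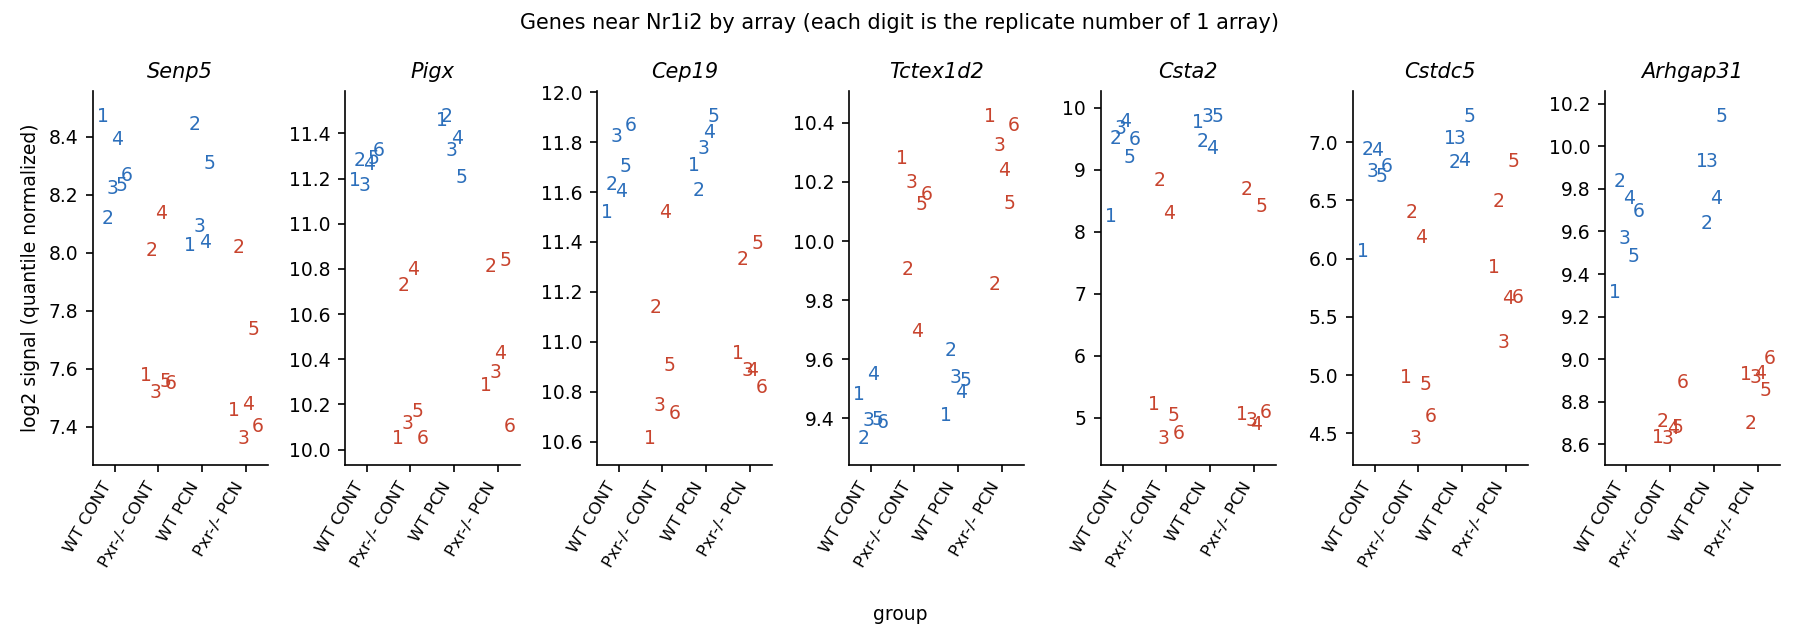
Log2 signal (quantile normalized, vertical axis, a scale of its own for each gene) of 7 genes near Nr1i2 in each array of the 4 groups, with the replicate number printed at each value, blue for WT and red for Pxr-/-. Pxr-/- CONT replicates 2 and 4 and Pxr-/- PCN replicates 2 and 5 lie nearest to WT for Pigx and Csta2, while Arhgap31 shows no such split.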

How the data were processed

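RNA of whole ileum (150 ng, TRIzol) was labelled with Cy3 and hybridised to 1-colour Agilent mouse arrays by the authors. The deposited scanner files (Agilent Feature Extraction 10.10.1.1 per the labels) hold linear spot intensity, without background subtraction in the median signal used here. The table the authors deposited holds log2 values made, per the study's methods, by filtering, batch correction and CrossNorm normalization, and it was used as an alternative.

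The median signal was put on the log2 scale, control and outlier spots were left out, repeat spots were averaged per probe, and quantile normalization was run over the 23 arrays. Probes entered the test if at least 50% of the arrays in any 1 group read well above background (37591 probes, 17727 genes, 6705 probes without a symbol, 34 missing values). Symbols came from the RefSeq gene table, matched by accession (32994 of 56605 probes), array name (10224) or older name (520). Probe coordinates are those of the array annotation (mm9). The position of probes relative to exons was not analysed here.

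A single limma 3.58.1 fit (R 4.3.3, lmFit and eBayes, 2-sided) modelled the 4 groups plus wash batch, with Benjamini-Hochberg adjustment over all tested probes. The median SE of a genotype change was 0.0974 (log2), set by the 6 arrays per group. Each gene is represented by its brightest tested probe. Groups and replicate numbers come from the labels. Each array is 1 mouse, and each group of oil-treated mice lay on 6 slides. The fit was tested on simulated data before use.

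The comparison, the gene lists and the genes near Nr1i2 were chosen with earlier results of these data known, and are described by counts and medians beside those of all genes. The text names up to 15 called genes per direction by size of change, the called genes of the lists and of the 10 Mb around Nr1i2, the first genes of each list, the 5 largest interactions among the called genes, and some further genes that were chosen after their values were seen. Some genes are not reported here. The alternatives covered background correction, normalization, the deposited table, the filter, the arrays in the fit, wash batch, slide, array weights, cell type covariates, the replicate block and each left-out array.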

Additional observations from a re-analysis of the deposited data

Results flagged for a closer look

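A single array stood far from the other 5 of its group (Dixon's ratio of gap to range) in 16 of 188 gene and group sets, or 8.51%, where chance alone gives about 1 in 20. WT CONT replicate 2 was the highest WT array for the transporters Abcb1a (15.03, others 14.12 to 14.24), Abcb1b (11.95, others 11.10 to 11.23) and Abcb4 (13.98, others 13.14 to 13.33), on the log2 scale. Since this array raises the WT level of the 3 transporters, their genotype difference is smaller without it, and all 3 remained called in each of the 12 fits that left out 1 array.

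Pxr-/- CONT replicate 4 was the highest of its group for Cyp2c29 (10.20, others 8.95 to 9.37), Abcc2 (10.62, others 9.32 to 9.75) and Abcc3 (13.05, others 12.74 to 12.80) and the lowest for Cyp3a13 (12.53, others 12.76 to 12.86). WT CONT replicate 1 was the lowest for Cstdc5 (6.06, others 6.71 to 6.94), H2-K1 (16.23, others 16.57 to 16.75) and H2-D1 (14.62, others 15.02 to 15.19). Pxr-/- CONT replicate 3 was the highest for Gstm1 (11.11, others 10.83 to 10.88) and Abi3bp (9.86, others 8.79 to 8.97). The other cases were Arhgap31 in Pxr-/- CONT replicate 6 (highest at 8.89, others 8.63 to 8.71), Cd7 in Pxr-/- CONT replicate 5 (lowest at 10.43, others 11.02 to 11.16), Ms4a4b in WT CONT replicate 6 (lowest at 7.84, others 8.18 to 8.35) and Cdk1 in WT CONT replicate 3 (lowest at 8.20, others 8.43 to 8.48).

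The genotype difference was of another size in the PCN-treated than in the oil-treated mice, by the interaction in limma, for 8 of the genes named above. It was more negative under PCN by -4.06 for Cyp3a41a, -3.89 for Cyp2b10, -3.80 for Cyp2b9, -3.75 for Cyp3a16, -3.58 for Cyp3a11, -3.11 for Cyp3a44, -2.17 for Gstm3 and -1.95 for Ces2a, with adjusted p-values of 0.000146 (Cyp2b9) to 0.0249 (Cyp3a44). Cyp2b9 and Cyp3a16 were not above background on any Pxr-/- CONT array. The size of their gap in oil-treated mice and of their interaction is thus not exact. For Cyp3a44, 3 of 6 Pxr-/- CONT arrays were above background.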

How the results depend on the processing

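All 38 genes kept their sign under every alternative, and 22 (20 lower, 2 higher) were called in each of the 12 fits that left out 1 array. The other 16 were not, among them Cstdc5, Il18bp, Gzmk, Ccl5, Cd7, Lck, Ms4a4b and the Cyp2d genes. The size of the change was less stable for some dim genes. Over all alternatives it was -4.74 to -1.76 for Cyp3a16, -4.03 to -1.86 for Cyp3a44, -3.31 to -0.70 for Cstdc5 and -2.52 to -0.63 for Smcp. Leaving out 1 array gave 24 to 62 genes, 13 to 22 list genes, 10 to 15 phase I enzymes lower, 0 to 5 lymphocyte genes higher and 4 to 8 genes near Nr1i2. The 38 genes (76.3% lower), 18 list genes, 11 phase I enzymes, 4 lymphocyte genes and 5 genes near Nr1i2 became, in this order, 103 (54.4% lower), 41, 16, 14 and 6 with the 12 CONT arrays, 177 (64.4% lower), 54, 19, 11 and 7 with slide in place of wash batch, 157 (54.1% lower), 58, 20, 14 and 7 with array weights, and 90 (58.9% lower), 32 list genes and 10 lymphocyte genes with the smooth muscle level as a covariate. Within wash batch 1 they were 3, 2, 2, 0 and 0 (960 genes at an unadjusted p under 0.05), and within wash batch 2 21 genes, 10 list genes, 0 lymphocyte genes and 8 near Nr1i2 (1125 genes at that p). Without a fold threshold there were 58 genes and 8 near Nr1i2, with processed signals 2 lymphocyte genes, and with a 5 Mb window 2 genes near Nr1i2. Under PCN the 96 genes became 57 and 32 within the batches and 155 without a fold threshold, and the 21 interactions became 3 and 0 within the batches (1193 genes at an unadjusted p under 0.05 in batch 2) and 10 with slide. Cdk1 turned to -0.0901 within wash batch 2. Nnt turned to -0.0328 there, and was -0.0003 (without Pxr-/- CONT replicate 4) to 0.2255 (without Pxr-/- CONT replicate 1) with 1 array left out. The replicate numbers were not treated as pairs in the main fit. Mice with the same number had correlations of -0.0045 to 0.40, with 3 of 6 above 0.1 and 3 of 6 best with their own number. These values do not settle whether the numbers pair the mice. A replicate block on the 12 arrays gave 70 genes (61.4% lower), 32 of them among the 38, with 32 list genes and 12 lymphocyte genes. Fits that pool fewer or reweighted arrays differ in the estimate of spread, and the cause of the other differences was not tested. For probes near background, such as Cyp3a16 in Pxr-/- CONT, the size of the change is not exact.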
